A study of Caenorhabditis elegans with 2 samples.

Results

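The nuclear hormone receptor genes of Caenorhabditis elegans were taken as every protein-coding gene whose name begins with nhr- in Ensembl release 115 on WBcel235, which shares its coordinates with ce11. They numbered 269 of the 19973 protein-coding genes on nuclear chromosomes. Chromosome V holds 167 of them, IV holds 33, X and I hold 23 each, II holds 15 and III holds 8. As a check of the name, 255 of the 269 predicted proteins (94.8%) contained the spacing of cysteines of the first zinc finger of the receptor DNA-binding domain, compared with 2.27% of all proteins. None of the 14 proteins without it belonged to a gene with a promoter summit.

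CTBP-1, the worm member of the C-terminal binding protein corepressors, was mapped by chromatin immunoprecipitation and sequencing (ChIP-seq) from whole L4 larvae at 48 hours, grown from starved L1 animals. All animals were of strain RW12203, which carries st12203[ctbp-1::TY1::EGFP::3xFLAG] X, a CRISPR insertion at ctbp-1 itself, and the chromatin was sonicated and precipitated with an anti-GFP antibody. The design had 1 group with 2 biological replicates, and no untagged strain, input or second condition was analysed here. Because whole animals were used, the tissue in which a site was bound is not known, and binding in few cells cannot be told apart from weak binding in many.

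Nuclear hormone receptors are transcription factors that bind DNA through zinc fingers and, in many cases, a lipid-like ligand through a second domain. They act with coactivators and corepressors, and in worms they are known for control of fat metabolism, moulting, detoxification and dauer formation. Nematodes carry far more of them than insects or vertebrates, and most of the additional genes are thought to descend from an HNF4-like ancestor, with many in tandem groups on chromosome V.

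The peaks used were those of the deposited series-level list, which was built from both replicates and passed a threshold on the irreproducible discovery rate (IDR), which scores how repeatably a peak is ranked. It held 2927 peaks, of which 2911 were nuclear, compared with 1404 in the list of replicate 1 and 1715 in that of replicate 2. A promoter summit is a peak summit from 1000 bp upstream to 250 bp downstream of any annotated protein-coding transcript 5' end. Signal values are the authors' own, in units that the sources used here do not give, and can be compared within a list only. Read depth is unknown, so the intervals below are 95% Wilson intervals that cover counting over genes only and treat neighbouring genes as independent.

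Sequences at the 5 strongest promoter summits of receptor genes on V and X, at an intron summit with a long repeat and at a contrasting intron summit on a tRNA gene show what kind of DNA was recovered. The letters are the RefSeq genome sequence of WBcel235 within 50 bp of the summit, ending where an exon begins, and read 5' to 3' on the strand of the receptor gene. Capitals mark matches, on either strand, to GAGAGA or to AGGTCA, the core that many nuclear receptors bind. The positions are chrV:5505177-5505252 (plus strand) for nhr-47, chrX:15707609-15707709 (plus) for nhr-48, chrX:2598904-2599004 (plus) for nhr-40, chrX:17513650-17513750 (plus) for the nhr-1 promoter, chrX:14557518-14557618 (plus) for nhr-3, chrX:17514643-17514743 (plus) for the nhr-1 intron and chrX:12665201-12665301 (minus) for nhr-17.
nhr-47 promoter: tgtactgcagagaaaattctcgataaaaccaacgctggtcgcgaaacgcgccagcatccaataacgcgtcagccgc
nhr-48 promoter: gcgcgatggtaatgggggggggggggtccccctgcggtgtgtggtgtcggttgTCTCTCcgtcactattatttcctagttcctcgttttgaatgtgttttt
nhr-40 promoter: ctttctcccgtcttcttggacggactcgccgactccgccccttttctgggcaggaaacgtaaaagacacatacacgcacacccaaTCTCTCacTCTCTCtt
nhr-1 promoter: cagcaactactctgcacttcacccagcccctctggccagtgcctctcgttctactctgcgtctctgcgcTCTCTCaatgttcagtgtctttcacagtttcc
nhr-3 promoter: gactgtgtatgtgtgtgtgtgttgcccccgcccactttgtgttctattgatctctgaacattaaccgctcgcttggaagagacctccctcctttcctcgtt
nhr-1 intron: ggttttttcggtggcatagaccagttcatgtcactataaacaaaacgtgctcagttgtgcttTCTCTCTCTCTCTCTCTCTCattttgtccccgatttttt
nhr-17 intron, tRNA gene: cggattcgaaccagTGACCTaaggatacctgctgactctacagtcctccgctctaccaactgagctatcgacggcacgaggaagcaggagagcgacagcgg
Within 75 bp of the summit, nhr-47 also held a GAGAGA match, whereas nhr-3 held none. The AGGTCA match at the nhr-17 summit lies inside the tRNA gene.

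The first question was how many receptor genes carried CTBP-1 at a promoter. A promoter summit was present at 16 of 269 (5.95%, interval 3.69 to 9.44), where 7.12% of all protein-coding genes had one. The background share lies inside the interval, so the family as a whole was not distinguishable from other genes. Had receptor genes been marked at the rate of all genes, 19.2 would have had a summit, and 14.7 at the rates of all genes in the same chromosomal region. With the number of 5' ends of each gene also taken into account, the figure was 16.2. In the conservative list the count was again 16, where 6.70% of all genes were marked, and 15 of the genes were shared, with nhr-105 lost and nhr-114 gained. The list of replicate 1 gave 10 genes (3.72%) where 3.78% of all genes were marked, and the list of replicate 2 gave 10 (3.72%) where 4.52% were. All 10 genes of each replicate were among the 16.

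An intron summit, meaning one inside the gene and outside all promoter windows and exons, was present at 7 receptor genes (2.60%, interval 1.27 to 5.27), where 2.21% of all genes had one. nhr-1, nhr-3, nhr-19 and nhr-40 had a summit of each kind, so 19 genes had a promoter or an intron summit, where 8.80% of all genes did. nhr-61 had its only summit in an exon, with a signal of 69.7. This peak passed in neither replicate list. Its summit lay 1133 bp downstream of the nearest nhr-61 5' end, and the 5' end of W01D2.1 was nearer, at 701 bp. A further 15 summits between genes lay nearest to 12 receptor genes. In all, 28 receptor genes had a promoter, intron or exon summit or were the nearest gene to a summit between genes. The other 241 had none of these. The last kind has no distance limit, and a summit nearer to another gene is not counted. nhr-86, for example, is among the 241 with a summit 1355 bp away. The share of all genes under this rule was not counted.

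The strongest promoter peak of the family belonged to nhr-47 (V 5505253 to 5509956), with its summit at V 5505227, 26 bp upstream of its single annotated 5' end. The series-level signal was 211, beside 99.1 in the ranked list of replicate 1 and 115 in that of replicate 2. The summit also lay in the promoter window of dnj-19, a gene for a DnaJ family cochaperone, but the nhr-47 end was nearer. The peak of nhr-48 (X 15708213 to 15716875), a receptor related to DAF-12, NHR-8 and the vitamin D receptor of vertebrates, lay 554 bp upstream at X 15707659 and had a signal of 200, with 95 and 108 in replicates 1 and 2. At nhr-40 (X 2594003 to 2606732), which is known for a role in embryonic and early larval development, the summit at X 2598954 lay inside the gene, 454 bp upstream of an internal 5' end. Its signal was 188, with 84.5 in replicate 1 and 88.5 in replicate 2. These 3 peaks passed the threshold in the list of each replicate and stood above 91% of nuclear peaks by signal.

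nhr-1 (X 17514063 to 17528197) had 3 promoter summits and 2 intron summits, the most of any receptor gene. The strongest lay 363 bp upstream of its first end at X 17513700, with a signal of 141, and gave 81.2 in replicate 1, where it passed the threshold, and 61.8 in replicate 2, where it did not. A second peak at X 17518485, 46 bp downstream of an internal 5' end, had a signal of 97.0 with 57.3 and 48.0 in replicates 1 and 2, and passed in both lists. The third, 164 bp upstream with a signal of 22.6, overlapped the first peak and matched the same peak of each replicate, so it is not a separate site in those lists. The intron summits had signals of 68.4 (37.9 and 30.0 in replicates 1 and 2) and 60.7 (30.6 and 31.0), and passed in neither replicate.

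nhr-3 (X 14558504 to 14561432) had 4 summits in or beside it. Its promoter summit at X 14557568, 936 bp upstream, had a signal of 138, with 82.1 in replicate 1 and 61.4 in replicate 2. An intron summit at X 14560387 was stronger, with a signal of 179 and replicate values of 84.8 and 90.5. Beyond the 3' end, summits at X 14561760 and X 14562487 had signals of 162 and 176. All 4 peaks passed the threshold in the list of each replicate.

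Members with known metabolic roles were also among the 16. nhr-49 (I 9869651 to 9874680) encodes an HNF4-related regulator of fatty acid desaturation, fat oxidation and the response to fasting, and had a summit at I 9869329, 322 bp upstream. Its signal was 125, with 63.8 and 66.1 in replicates 1 and 2, and it passed in both lists. nhr-68 (V 11573440 to 11575709) encodes a receptor of the propionate response that sets in when vitamin B12 is low. Its summit at V 11573022, 418 bp upstream, had a signal of 113 with 67.9 and 43.7 in replicates 1 and 2, but the 5' end of H12C20.7 lay much nearer, at 32 bp. nhr-142 (V 5785957 to 5790553) was similar, with a signal of 108 at V 5791071, 518 bp from its own end and 159 bp from that of F44E7.9, and replicate values of 58.1 and 52.6. At the other 14 genes the receptor's own 5' end was the nearest of any protein-coding gene.

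Counting tRNA, snoRNA and snRNA genes together as small RNA genes, 2 of the 18 promoter peaks were at one, or 11.1%, compared with 7.98% of all promoter peaks. At the receptor genes both were tRNA genes, and the share of all promoter peaks on tRNA genes alone was not counted. At nhr-255 (X 15742610 to 15744298) the summit at X 15742061 lay on the tRNA-Leu gene ZK678.t1, with a signal of 123 and 52.0 and 63.2 in replicates 1 and 2. At nhr-41 (IV 1386215 to 1399353), the orthologue of the TR2 and TR4 orphan receptors, the summit at IV 1388256 lay on the tRNA-Glu gene Y104H12A.t1. Its signal was 84.2, with 56.0 in replicate 1, where it passed the threshold, and 33 in replicate 2, where it did not. Whether the tRNA gene or the receptor promoter was the bound element at these 2 sites cannot be told apart in these lists, and 14 receptor genes had a promoter summit without them.

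The remaining 6 genes had weaker peaks. nhr-32 (X 13251672, signal 82.7), nhr-88 (II 2976858, 81.2), nhr-97 (IV 9757043, 80.5), nhr-135 (V 7093945, 72.7) and nhr-19 (II 9606115, 70.8) did not pass in the list of either replicate. Their signals ranged from 35.0 to 43.0 in replicate 1 and from 28.5 to 43.9 in replicate 2. nhr-105 (IV 7049721, signal 54.6) passed in replicate 2 alone, with 17.1 in replicate 1 and 39.2 in replicate 2, and was missing from the conservative list. These 6 therefore rest on the combined list to a larger degree than the stronger peaks.

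Over the 18 promoter peaks, the median signal was 102, compared with 87.6 for all promoter peaks. Their median signal percentile among nuclear peaks was 64.1, compared with 52.1 for all promoter peaks, but it was 44.5 within the replicate 2 list alone and 56.2 within that of replicate 1. Peaks that overlapped a thresholded peak of each replicate numbered 9 (50%, against 39.3% of all promoter peaks), and 5 (27.8%, against 33.1%) overlapped none of either. Summits lay upstream of the 5' end in 15 cases, at a median of 435 bp, and downstream in 3. The window itself reaches 1000 bp upstream and only 250 bp downstream. The same split was not counted for all promoter peaks, so these counts show no preference for a position.

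**Figure D1:**
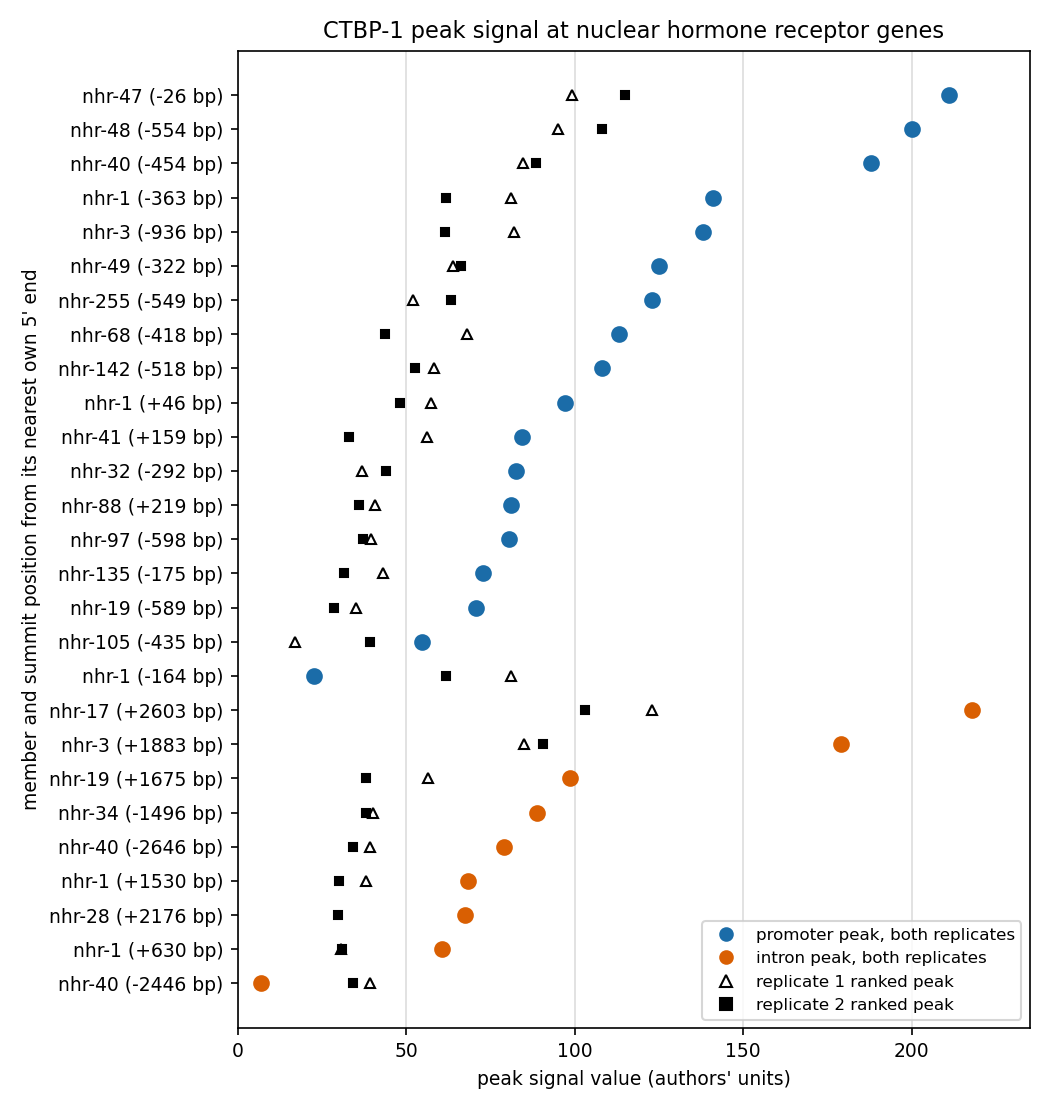
Signal of each promoter (blue) and intron (orange) peak at receptor genes in the series-level list, with the overlapping ranked peak of replicate 1 (open triangles) and replicate 2 (black squares). The horizontal axis is the authors' signal value and each line names the gene and the summit's position in bp from its nearest own 5' end; lists have their own scale, so only the order of peaks compares between symbols. nhr-47 and nhr-48 lead the promoter peaks at 211 and 200, and nhr-17 leads the intron peaks at 218.

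Of the intron peaks, the strongest was at nhr-17 (X 12663837 to 12667854), where the summit at X 12665251 lay on the tRNA-Tyr gene C02B4.t2. Its signal was 218, with 123 and 103 in replicates 1 and 2. This is slightly above the 211 of the nhr-47 promoter, and the nearest protein-coding 5' end was that of the neuropeptide-like gene nlp-76, 1348 bp away. It was the only 1 of 9 intron peaks at a small RNA gene (11.1%), compared with 25.3% of all intron peaks. nhr-19 had an intron summit at II 9603575 with a signal of 98.7 (56.3 and 38.0 in replicates 1 and 2), stronger than its promoter peak. Those of nhr-34 (88.9), nhr-40 (78.9, with an overlapping peak of 6.80) and nhr-28 (67.4, with no ranked peak in replicate 1) passed in neither replicate. In all, 2 of the 9 intron peaks, at nhr-17 and nhr-3, passed in both replicate lists, where 35.2% of all intron peaks did. Another 6 passed in neither, where 34.7% did. These 6 include the overlapping nhr-40 peaks, which matched the same peak of each replicate and so are not separate sites there.

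Several receptor genes were the nearest gene to strong summits that lay outside any promoter window. The strongest peak near any receptor gene was of this kind, at II 2974134, 2505 bp upstream of nhr-88, with a signal of 330 and 132 and 191 in replicates 1 and 2. It was followed by summits 2766 bp upstream of nhr-277 (signal 180, 105 and 69) and 7692 bp upstream of nhr-71 (179, 73.1 and 103). Next came the nhr-3 summit of signal 176 given above and a summit 4656 bp upstream of nhr-20 (173, 73.9 and 91.8). All 5 passed in both replicates' lists. Over the 15 such summits the median signal was 116, compared with 85.8 for all nuclear peaks. Of the 15, 7 passed in both lists, where 1049 of all 2911 nuclear peaks did. Values for all summits between genes were not computed, so whether these 15 differ from other such summits was not tested. The 15 summits bear only on distance, since which gene such a site serves was not measured. The summit near nhr-69 lay on the tRNA-Glu gene T23H4.t1.

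**Figure D2:**
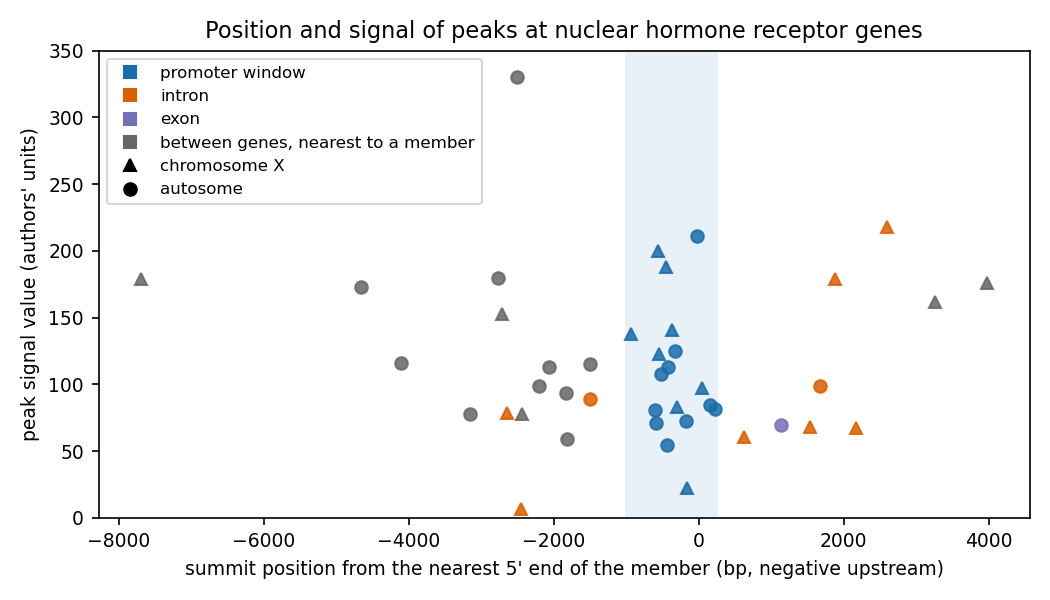
Position of each summit at or nearest to a receptor gene, in bp from the gene's nearest 5' end (horizontal axis, negative upstream), against its signal in the authors' units (vertical axis). Colours give the place of the summit, triangles mark X and circles the autosomes, and the shaded band is the promoter window. The point at 330 is the summit 2505 bp upstream of nhr-88, and promoter summits lie between 936 bp upstream and 219 bp downstream.

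The next question was whether the tandem groups of receptor genes on the chromosome V arms differed from the other members. The arms were taken as the outer 30% of V at either end, and a cluster as members within 20000 bp of each other. There were 20 clusters with 93 genes, 9 on the left arm with 60 genes and 11 on the right arm with 33. The largest had 12 genes, from nhr-123 to nhr-131 at V 451451 to 497297. None of the 93 genes had a promoter summit (interval 0 to 3.97), and none had an intron summit. All 3 other thresholded lists, conservative, replicate 1 and replicate 2, also gave 0. Of the 176 members outside the clusters, 16 had a promoter summit (9.09%, interval 5.67 to 14.3). The cluster interval, 0 to 3.97, did not overlap this.

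The low count was shared with the chromosome arms around the clusters. Of all 2864 protein-coding genes on the V arms, 3.07% had a promoter summit and 1.05% an intron summit, so 0 of 93 was not distinguishable from the rate of the arms. Receptor genes on the V arms but outside clusters had 2 of 32 (6.25%, interval 1.73 to 20.1), nhr-47 and nhr-142. All V arm receptor genes together had 2 of 125 (1.60%, interval 0.440 to 5.65). Away from the V arms the count was 14 of 144 (9.72%, interval 5.88 to 15.7), where 7.80% of all genes were marked, again inside the interval. Chemoreceptor genes, another tandemly expanded family of the same arms, had 3 of 584 there (0.514%, interval 0.175 to 1.5), and the ceh homeobox genes, another family of transcription factor genes, had 6 of 63 in all (9.52%, interval 4.44 to 19.3).

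Within the clusters, 1 summit lay inside any of the 20 spans, which add up to 453448 bp. It was at V 15321146, 1836 bp upstream of nhr-247, with a signal of 93.6 and replicate values of 36.8 and 47.6, and it passed in replicate 2 alone. The median distance from the 5' end to the nearest summit was 90858 bp for cluster genes and 29820 bp for the other members, compared with 17673 bp for all genes and 40602 bp for all V arm genes. Peaks below the threshold were present. In the ranked list, 42 of 93 cluster genes (45.2%) had a peak in the promoter window, close to the 48.5% of all V arm genes, with a median signal of 26.1 against 24.3. The strongest reached 48.0, at nhr-96, which is under the 54.6 of nhr-105. How reads from similar neighbouring copies were assigned is not given in the sources used here.

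**Figure D3:**
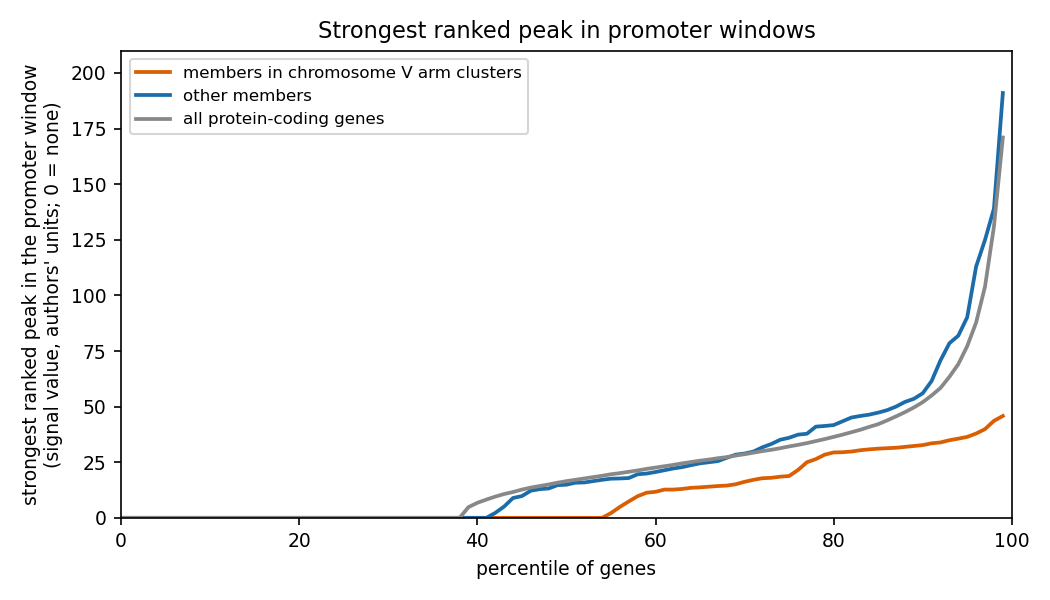
Strongest peak of the ranked list in each gene's promoter window (vertical axis, authors' signal units, 0 where there is none) by percentile of genes (horizontal axis) for receptor genes in V arm clusters (orange), other receptor genes (blue) and all protein-coding genes (grey). Lines are drawn to the 99th percentile; the orange line stays under 48.0, whereas the blue and grey lines run close together and rise far above it.

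By chromosome, X had the highest share of marked receptor genes. Promoter summits were present at 6 of 23 (26.1%, interval 12.5 to 46.5), nhr-1, nhr-3, nhr-32, nhr-40, nhr-48 and nhr-255, where 8.42% of all genes on X were marked. Intron summits were present at 5 of 23 (21.7%, interval 9.66 to 41.9), where 3.66% of X genes had one, and 8 had a summit of either kind (34.8%, interval 18.8 to 55.1), where 11.2% did. On the autosomes 10 of 246 receptor genes had a promoter summit (4.07%, interval 2.22 to 7.32), where 6.91% of all genes did, and 2 had an intron summit (0.813%), where 1.98% did. X was singled out after the values were seen, so no test was made and the interval does not account for that choice.

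Receptor genes on X were also longer in the annotation. Their median length was 4483 bp, compared with 2250 bp for those on the autosomes, and 12 of 23 (52.2%) had more than 1 annotated 5' end. A promoter summit was present at 3 of the 11 X members with a single end and at 3 of the 12 with more, and the part of length and number of ends in the X share was not tested. Per length of window, X members held 197 summits per Mb (8 summits), compared with 57.8 for all X genes, 27.1 for autosomal members and 43.9 for all members. These 8 include the 3 promoter summits of nhr-1, 1 of which belongs to a peak that overlaps another and is not a separate site in the replicate lists. Counts this small leave wide margins. With a window of 500 bp upstream to 100 bp downstream, 3 of the 23 remained, since nhr-3, nhr-48 and nhr-255 have their summits further out. Replicate 1 alone and replicate 2 alone gave 5 each for promoter summits. Intron summits fell from 5 of 23 to 2 (8.70%) in the list of replicate 1, where 1.94% of all X genes had one. In that of replicate 2 they fell to 3 (13.0%), where 2.31% did. The series-level intron peaks of nhr-1, nhr-28 and nhr-40 passed in neither replicate, and that of nhr-17 lay on a tRNA gene. Among other regions, II had 2 of 15 (all genes there 6.38%), IV 3 of 33 (6.86%) and I 1 of 23 (9.24%). The centre of V had 2 of 42 (6.29%) and III 0 of 8 (9.81%). In each of these regions the share of all genes lay inside the interval of the members.

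**Figure D4:**
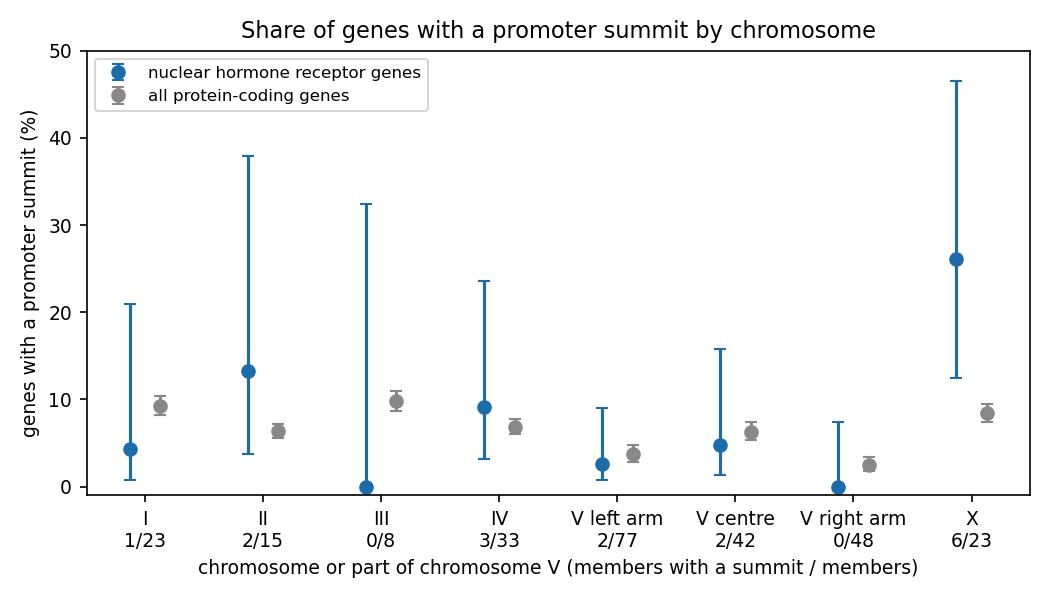
Share of receptor genes (blue) and of all protein-coding genes (grey) with a promoter summit, in percent (vertical axis), for each chromosome and part of V (horizontal axis, with counts below); bars are 95% Wilson intervals. On X the receptor genes stand at 26.1% against 8.42%, and on both V arms the grey point lies inside the blue interval.

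Marked genes were longer and more often had several 5' ends, over the whole genome as well as in the family. A gene counts as marked through any of its 5' ends, so genes with more ends have more window by rule. Receptor genes with a promoter summit had a median length of 4867 bp and 62.5% had more than 1 annotated 5' end, compared with 2253 bp and 33.6% for those without. For all genes the values were 2927 bp and 45.2% with a summit and 1983 bp and 24.8% without. Among receptor genes with a single 5' end, 6 of 174 (3.45%) were marked, where 5.29% of all such genes were. With more ends, 10 of 95 (10.5%) were marked, where 12.2% of all such genes were. The windows of all 14723 single-end genes covered 16.9 Mb, and those of the 5250 genes with more ends covered 11.4 Mb. Per Mb of window, all single-end genes held 42.5 summits, and all genes with more ends held a larger number. How much of the difference in marked shares comes from window length was not tested.

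Of the 6 motifs searched, GAGAGA was the most often present under the receptor summits. In windows of 75 bp to either side it occurred at 10 of 18 promoter summits (55.6%, interval 33.7 to 75.4), compared with 30.2% of all 1303 promoter peaks and 10.5% of windows of the same width centred 250 bp upstream of all 29314 protein-coding 5' ends. The genes were nhr-47, nhr-48, nhr-40, nhr-1 at both of its upstream summits, nhr-49, nhr-68, nhr-32, nhr-135 and nhr-105, and 3 of 9 intron summits also held it. The median G and C content was 44.7% at the receptor promoter summits, 46.4% at all promoter peaks and 33.8% in the upstream windows. AGGTCA occurred at 0 of 18 promoter summits, compared with 4.30% of promoter peaks and 3.98% of upstream windows. GGTCA, which lies inside AGGTCA, occurred at 1, that of nhr-49, compared with 14.5% and 13.0%. The E-box CACGTG was present at nhr-68 and nhr-32 (4.37% of promoter peaks), the GATA site TGATAA at nhr-68 (6.52%), and the E-box CACCTG of ZEB-like factors at none (2.76%). All letters were searched on both strands, and a match is a description of the sequence only.

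Of 11 members with clear relatives in other animal phyla, 2 had a promoter summit (18.2%, interval 5.14 to 47.7), where 7.12% of all genes did. They were nhr-48 and nhr-41, the latter on a tRNA gene. For the others the nearest summit lay 9604 bp away for nhr-67 (the tailless orthologue), 11888 bp for nhr-91 (related to GCNF), 15200 bp for nhr-239 and 18973 bp for nhr-85 (related to E75 and Rev-erb). It lay 29783 bp away for nhr-25, the FTZ-F1 orthologue of moulting and epidermal development, 31263 bp for nhr-6 (the NR4A orthologue), 47899 bp for nhr-8, 60094 bp for nhr-23, the ROR orthologue that drives moulting, and 227666 bp for nhr-111. All 9 distances exceed the 1000 bp of the promoter window several times over. Of 14 HNF4-like members with genetic roles, nhr-49 and nhr-68 had a promoter summit (14.3%, interval 4.01 to 39.9), again with the 7.12% of all genes inside the interval. nhr-28 had an intron summit, which 2.21% of all genes had. nhr-80 and nhr-13, partners of NHR-49 in fat desaturation, had none.

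Among receptor genes without a promoter summit, the 5 with the strongest ranked promoter peak by signal were nhr-193 (62.2), nhr-114 (61.3), which protects the germline under low vitamin B12 and did pass in the conservative list, nhr-46 (57.4), nhr-14 (53.9) and nhr-25 (52.2). They were chosen by signal and not by IDR, and their -log10 IDR ran from 0.161 at nhr-114 to 1.97 at nhr-46, where 2 was needed. Replicate signals ran from 20.6 to 34.4 in replicate 1 and from 24.7 to 33.7 in replicate 2, lower than at most of the 16 marked genes. No receptor gene had a promoter summit in a replicate list while missing one in the series-level list.

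Genes that work with the receptors were examined from lists of known partners. Receptor cofactor genes had promoter summits at 3 of 9 (33.3%, interval 12.1 to 64.6), where 7.12% of all genes did. This list was chosen with earlier results of these data known, so no test was made and the interval does not account for that choice. Of the marked genes, cbp-1 and din-1 have 3 and 6 annotated 5' ends, and 12.2% of all genes with more than 1 end had a promoter summit. cbp-1, the p300 and CBP acetyltransferase gene, had a summit 890 bp upstream with a signal of 379 and 182 and 191 in replicates 1 and 2, above every receptor promoter. din-1, whose product is the corepressor partner of DAF-12, had 3 promoter summits, the strongest with a signal of 167 and 98.6 and 64.8 in the replicates. ubc-9, the SUMO-conjugating enzyme gene, had a signal of 92.5 and passed in replicate 2 alone. mdt-15, the Mediator subunit that acts with NHR-49, had none. gei-8, hda-1, sin-3, smo-1 and ncl-1 also had no promoter summit, and ncl-1 had 6 intron summits with a strongest signal of 120.

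Other genes of the pathways were counted in the same way. The 5 nuclear receptor genes with other names, daf-12, unc-55, odr-7, fax-1 and sex-1, had 0, although daf-12, the dafachronic acid receptor, had an intron peak with a signal of 167. The 8 genes of dafachronic acid synthesis and sterol supply, among them daf-9 and daf-36, had 0. Of 10 genes linked to NHR-49 and NHR-80, 1 had a promoter summit (10%, interval 1.79 to 40.4). It was acs-2, an acyl-CoA synthetase gene, with a signal of 69.9 that passed in neither replicate. The 9 moulting cycle partners had 0 promoter summits, and lin-42, the PERIOD homologue, had 4 intron summits with a strongest signal of 150. In these 4 lists, of 5, 8, 10 and 9 genes, the counts lie within counting error of the 7.12% of all genes.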

How the data were processed

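ChIP-seq of GFP-tagged CTBP-1 in whole L4 larvae was analysed from 7 of the authors' peak lists on ce11, per the labels. The signal values are the authors' own, deposited per peak, with units not stated, and the score used is the -log10 of the global IDR in the deposited ranked lists. Every thresholded peak had a global IDR of 0.01 or less, and 28 ranked series-level peaks past that threshold were not in the thresholded list. The aligner, peak caller, versions, control use and read numbers were not given in the sources used here. Depth is unknown. The deposited p-value column held a placeholder and was not used. No columns of other samples were used (0).

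Peaks were placed against Ensembl release 115 (29314 distinct protein-coding 5' ends), and 0 peaks ended past a chromosome end. Peaks of different lists were matched by an overlap of at least 1 bp, and small RNA genes (tRNA, snoRNA, snRNA) within 200 bp of a summit. With 1 group and peak lists alone, shares were described with 95% Wilson intervals and no test was made. Members, gene lists, motifs and windows were chosen with earlier results of these data known. Genes named are all members with a promoter or intron summit, the 5 strongest ranked promoter peaks that missed the threshold, the conserved members, and up to 3 genes of each related list by promoter signal. A few others named for an intron or intergenic summit, or for having none, were chosen after their values were seen. Alternatives changed the list, left out a replicate, or changed windows, cluster rules and overlap. The scripts used Python 3.11.15, pandas 2.3.3, numpy 2.4.6 and matplotlib 3.10.9, and placement was tested on simulated data.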

Additional observations from a re-analysis of the deposited data

How the results depend on the processing

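Of 73 values under 15 alternative settings, 53 stayed within the set margin (1.5 times the count, or the spread between replicate lists for percentiles), 20 moved and 0 reversed. Receptor genes with a promoter summit numbered 16 and ranged from 9 to 21. Leaving out either replicate gave 10 (10 to 10) for all members and also 10 (10 to 10) outside the V arm clusters, 3 (3 to 3) rather than 7 genes with an intron summit, 1 to 2 promoter peaks at small RNA genes, and a median signal percentile of 44.5 to 56.2 rather than 64.1. A replicate was left out by using the other replicate's own, shorter list, so fewer peaks entered. The upper 0.5 of the list by signal gave 9 members, all outside clusters (9), 4 with an intron summit, 1 peak at a small RNA gene and a percentile of 78.5. That percentile refers to ranks in the full list, so keeping the upper 0.5 could only raise it. A window of 500 bp upstream to 100 bp downstream gave 9 members (9 outside clusters), 3 on X, 1 peak at a small RNA gene and 5 rather than 9 peaks that passed in both replicates. A window of 2000 to 500 bp gave 1 cluster gene, nhr-247. Assigning each summit to its nearest 5' end alone dropped nhr-68 and nhr-142, with peaks at percentiles 69.8 and 67.8, and gave a median percentile of 54.2. The counts on X and the setting with the outermost 5' end of each gene (14 members, without nhr-40 and nhr-41) were added after seeing the data. The counts for clusters were 0 under the other 11 settings tried. Several of these, such as the narrower window, the upper 0.5 by signal and the nearest 5' end alone, can only remove summits or genes. Their 0 was therefore fixed by the main count of 0, although they are among the 53 values. No paired analysis was possible because there was 1 group and no test. Read depth is unknown, so whether unmarked promoters were missed for lack of reads was not tested.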
